A study of Mus musculus with 21 samples.

Results

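Lysosomal cathepsins were followed in inflammatory monocytes (IMs) of mice with and without lung squamous tumors. The genes were taken by symbol: the 8 cathepsins Ctsa, Ctsb, Ctsc, Ctsd, Ctsh, Ctsl, Ctss and Ctsz, the legumain gene Lgmn, and Cst3, which encodes the inhibitor cystatin C. All 10 were present among the 23420 gene symbols of the count table, and all 10 passed the filter on low counts in every comparison. Tumor IMs (TIMs) came from 2 models. FVB mice received 500000 KAL-LN2-E1 cells (LN2E1) in the lung, and TIMs were sorted from their primary lung tumors (n = 5) and lymph node metastases (n = 5). DBA2 mice received 300000 LN4K1 cells intravenously, and TIMs were sorted from lungs that carried tumors (n = 5). IMs from the bone marrow (BM IMs) of healthy, untreated FVB mice (n = 3) and DBA2 mice (n = 3) were the baselines. Each model used a single passaged cell line, and strain, cell line, route and tissue changed together between the models. A kit enriched the monocytes before a sort of SiglecF-negative cells by CD45, CD11b, Ly6C and Ly6G, and the ages of the mice in each group are not given in the sample labels. The study's methods call the samples of a condition technical replicates and the labels tie none to an animal, so p-values measure the spread between these samples, which may be technical.

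Cathepsins are proteases of the lysosome, where an acidic pH keeps them active. They are made as inactive precursors and are routed to the lysosome on mannose 6-phosphate receptors. Most belong to the cysteine class (Ctsb, Ctsc, Ctsh, Ctsl, Ctss, Ctsz), whereas Ctsd is an aspartic and Ctsa a serine enzyme. Legumain cuts after asparagine and trims several cathepsins into their mature forms. In monocytes and macrophages these enzymes degrade engulfed protein, prepare peptides for MHC class II and, once secreted, cut extracellular matrix. Cystatin C binds and blocks the cysteine cathepsins, mainly outside the cell.

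RNA levels are given as CPM, counts scaled to library size with TMM factors over the 21 libraries, whose totals lay between 80772922 and 101043568. Together the 10 genes took 0.999% to 1.102% of the counts of an FVB BM IM library and 1.15% to 1.24% of a DBA2 BM IM library. Their share was 1.46% to 1.64% in primary tumor TIMs, 1.78% to 2.08% in lymph node TIMs and 1.51% to 1.74% in LN4K1 lung TIMs, above every BM IM library. Of the sort genes, Ly6c2 in the BM IM libraries measured 2434 to 3600.0 CPM for FVB and 2509 to 2728 CPM for DBA2, and 1103 to 1389.9, 974 to 1676 and 1219 to 1688 CPM in the primary tumor, lymph node and LN4K1 lung TIMs. Ccr2, the chemokine receptor of IMs, was at 704 CPM or more in every library. The summed level of 6 neutrophil precursor genes was 2525 to 3543 CPM in BM IM libraries and 14.99 to 321 CPM in TIM libraries, and that of 3 eosinophil genes was 427 to 1132 CPM in BM IM libraries and at most 64.9 CPM in TIM libraries. Macrophage genes (7 listed) summed to 865 to 2036 CPM in BM IM and 2307 to 5571 CPM in TIM libraries, most of it Apoe. Of the 7, 3, 2 and 2 were called higher in primary tumors, lymph nodes and LN4K1 lung, Apoe and Emr1 in each, and C1qc was lower in LN4K1 lung. Emr1, the gene of F4/80, was 98.7 to 167 CPM in BM IM and 156 to 341 CPM in TIM libraries, while C1qa, C1qb, C1qc, Mrc1 and Mertk did not exceed 55.1, 97.6, 76.1, 35.5 and 15.9 CPM. Dendritic cell genes (6 listed) summed to 78.3 to 112 CPM in BM IM and 109 to 347 CPM in TIM libraries, with 4, 3 and 2 called higher and 1 lower in LN4K1 lung; Itgax, the gene of CD11c, was at most 3.12 CPM in BM IM libraries and 6.43 to 131 CPM in TIM libraries. The sum of 5 mature neutrophil genes was 1733 to 2172 CPM in FVB BM IMs and 663 to 936 CPM in those of DBA2 mice. In LN2E1 TIMs it was 296 to 1338 CPM and in LN4K1 lung TIMs 911 to 1646 CPM. Alveolar macrophage genes (6 listed) summed to 20.9 to 118 CPM, and B cell, T cell and squamous tumor genes to at most 4.51 CPM. Lung epithelium genes (4 listed) summed to at most 1.58 CPM in BM IM libraries. Their sum was 124 to 723 CPM in primary tumor TIMs, 0.861 to 4.56 CPM in lymph node TIMs and 6.52 to 92.8 CPM in LN4K1 lung TIMs. In bulk RNA, fewer cells of a type and less RNA per cell cannot be told apart, and the part of these other cells in the results was not tested. LN4K1 lung TIM replicate 3 stood furthest from its group (median absolute deviation of 0.435 log2 units over genes), followed by lymph node TIM replicate 1 (0.289) and FVB BM IM replicate 3 (0.208).

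Upstream sequences are shown for Ctss, Ctsc and Lgmn, which were higher in TIMs in all 3 comparisons below (RefSeq, GRCm38.p6, read 5′ to 3′ towards the start of transcription). Of the 10 genes, 8 had a promoter entry, and Ctsb and Ctsh had none. The windows run from 250 bases before to 50 bases after an annotated start. Ctsl, also higher in all 3, is not printed because its annotated start lies inside the GENCODE gene. The stretches printed lie upstream of the GENCODE gene, and capitals mark the motifs found in them. In Ctss these letters are the GAAANNGAA core bound by interferon regulatory factors. In Ctsc they are the reverse complement of GAGGAAG, a core bound by the myeloid factor PU.1.
Ctss (chr3:95526536-95526785, plus strand): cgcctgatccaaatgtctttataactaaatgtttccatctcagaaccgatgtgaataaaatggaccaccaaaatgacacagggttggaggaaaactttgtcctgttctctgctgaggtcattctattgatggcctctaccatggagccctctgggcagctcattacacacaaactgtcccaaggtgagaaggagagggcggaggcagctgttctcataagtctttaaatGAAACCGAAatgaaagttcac
Ctsc (chr7:88277835-88278084, plus strand): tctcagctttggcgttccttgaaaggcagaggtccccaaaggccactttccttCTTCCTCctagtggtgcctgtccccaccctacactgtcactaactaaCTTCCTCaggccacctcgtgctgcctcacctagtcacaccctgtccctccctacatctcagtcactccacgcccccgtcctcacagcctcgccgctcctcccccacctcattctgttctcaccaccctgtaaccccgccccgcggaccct
Lgmn (chr12:102439814-102439978, minus strand): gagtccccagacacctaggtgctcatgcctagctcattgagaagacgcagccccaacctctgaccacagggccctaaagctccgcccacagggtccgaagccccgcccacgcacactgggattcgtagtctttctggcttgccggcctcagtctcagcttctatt
The interferon motif in Ctss began 21 bases before the start, and a GAGGAAG match spanned the start itself. Searched on both strands, GAAANNGAA occurred in 8.56% and GAGGAAG in 13.6% of the 32851 promoter windows of the same length. In Ctsc the pair of PU.1 cores began 197 and 150 bases before the start. CACGTG, the E-box, was present in 7.15% of windows, and TCACGTGA, which contains it and is the core of the element bound by the lysosomal regulator TFEB, in 0.974%. TCACGTGA was found at Ctsd and at the second of 2 annotated starts of Ctsa, in both cases inside the GENCODE gene. The first Ctsa start had none of the 4 motifs in its window. CACGTG alone was found at Ctsl and at 1 of 2 starts of Lgmn, both inside the GENCODE gene. None of the 4 motifs was found in the windows of Cst3 or Ctsz or in the stretch printed for Lgmn. These matches describe letters in a window and say nothing about binding.

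Per kilobase of the shortest principal transcript, Ctss and Cst3 had the highest mean levels of the 10 genes in all 5 groups, and Lgmn and Ctsl had the lowest. Cst3 led in BM IMs and Ctss in TIMs. Ctss stood at 1127 ± 203 CPM per kb (SD, n = 3) in FVB BM IMs and 3919 ± 608 (SD, n = 5) in lymph node TIMs. Lgmn stood at 13.8 ± 3.81 (n = 3) and 146 ± 15.4 (n = 5) CPM per kb in the same groups. Of the 9 pairs of neighbours in each order, 2 in FVB BM IMs, 3 in DBA2 BM IMs, 4 in primary tumor TIMs, 3 in lymph node TIMs and 3 in LN4K1 lung TIMs lay within 1 SD (the larger of the pair) of each other. Ctss and Cst3 did so in lymph node TIMs, where Cst3 stood at 3405 ± 387, and in LN4K1 lung TIMs, at 3030.3 ± 594 and 2762 ± 684 CPM per kb. Ctsa and Ctsd, next to each other in all 5 groups, did so in both BM IM groups and in primary tumor TIMs.

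**Figure D1:**
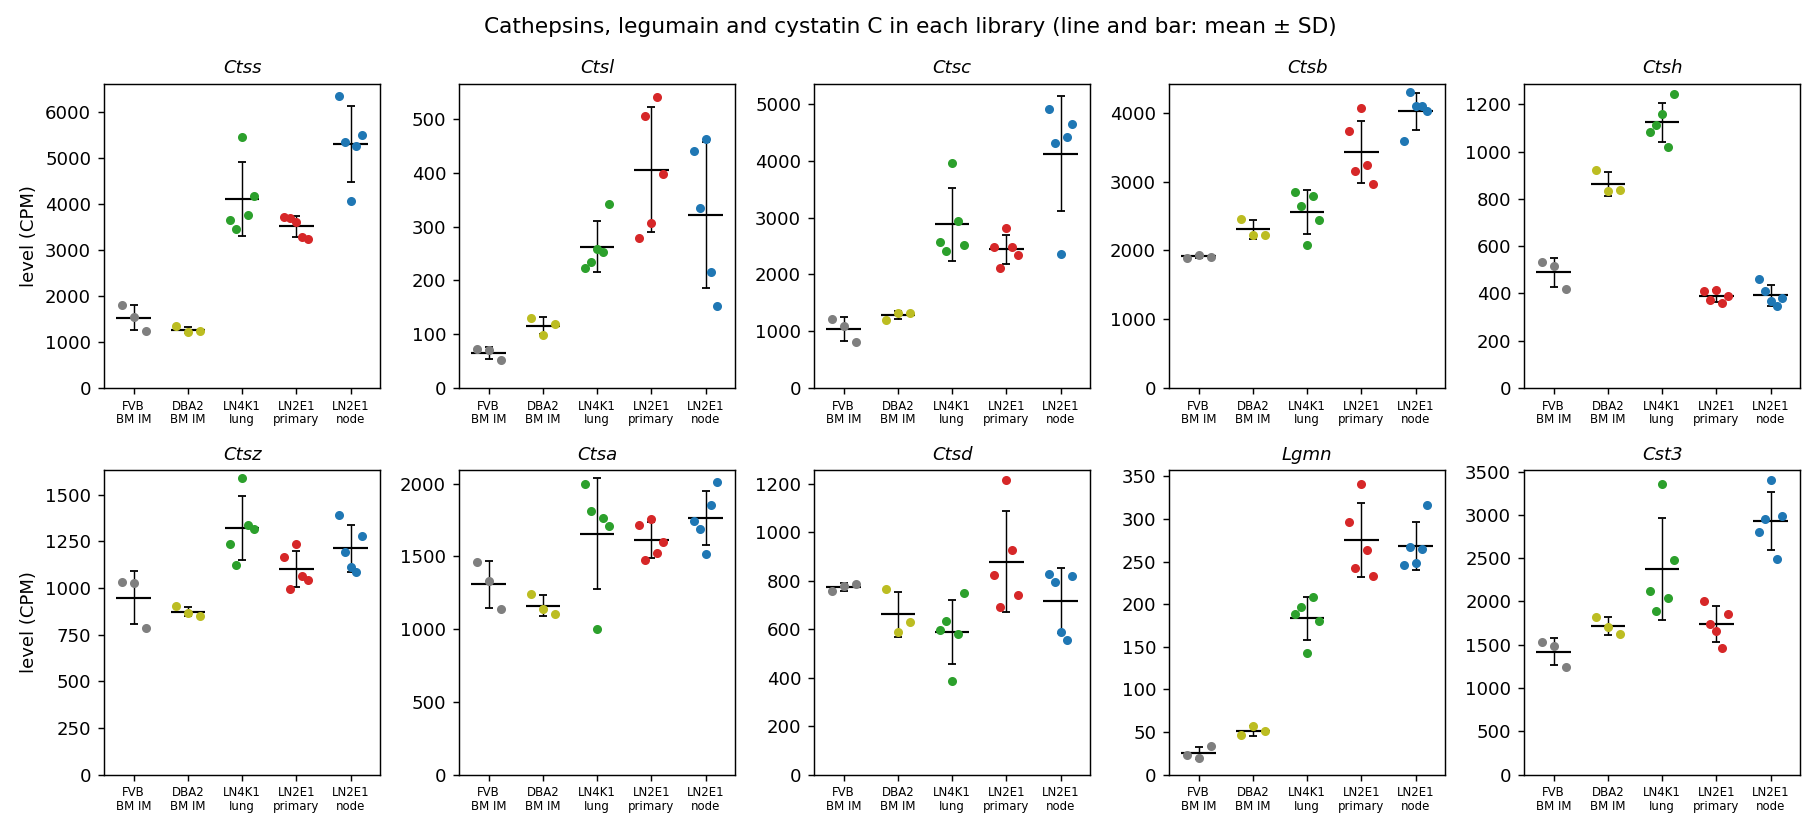
Level (CPM, linear axis from 0) of each gene in each of the 21 libraries. Points are libraries, and the line and bar are the mean ± SD of the group (n = 3 for BM IMs, n = 5 for TIMs). Lgmn, Ctsl, Ctss and Ctsc lie higher in every TIM library than in any BM IM library of the same strain, and Ctsh separates the FVB groups from the DBA2 groups. How many of all genes separate in these ways was not counted.

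TIMs were first compared with BM IMs of the same strain, the question being which genes differ between monocytes in tumors and their marrow counterparts. Lgmn, Ctsl, Ctss and Ctsc were higher in TIMs in all 3 comparisons. In LN2E1 primary tumors, 6 genes were higher (Lgmn, Ctsl, Ctsc, Ctss, Ctsb and Ctsa) and 1, Ctsh, was lower at an adjusted p under 0.05 in edgeR's quasi-likelihood test, and in that comparison 33.3% of all genes tested were higher and 28.6% lower. In LN2E1 lymph nodes, 7 were higher (the same 6 and Cst3), against 20.2% of all genes. In LN4K1 lung, 5 were higher (Lgmn, Ctss, Ctsl, Ctsc and Ctsz), against 13.9% of all genes. None was called lower in lymph nodes or LN4K1 lung, where 17.2% and 11.0% of all genes were; at an unadjusted p under 0.05 that count was 1 and 0, and with DESeq2 it was 0 in both. The members' median log2 fold change was 0.55, 1.06 and 0.48 in primary tumors, lymph nodes and LN4K1 lung, beside medians of 0.08, -0.04 and 0.03 over all genes tested. At the study's thresholds for DEGs (adjusted p below 0.0001, fold change above 1 on the log2 scale in either direction), applied to edgeR's fold changes, which were not shrunken as the study's were, 4 members were higher in primary tumors, 3 in lymph nodes and 1 in LN4K1 lung, where 7.72%, 4.01% and 1.21% of all genes were. No member was a lower DEG, against 5.18%, 1.70% and 1.76% of all genes, and DESeq2's Wald test also gave 0. The counts of higher DEGs changed with single libraries. In primary tumors the count was 1 without FVB BM IM replicate 2 and 2 without FVB BM IM replicate 1 or primary tumor TIM replicate 1, 2 or 4. In lymph nodes it was 1 without any of the 3 FVB BM IM libraries or lymph node TIM replicate 2, 4 or 5. In LN4K1 lung it was 2 without LN4K1 lung TIM replicate 3 and 0 without any other library. The primary tumor and lymph node comparisons share the 3 FVB BM IM libraries.

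**Figure D2:**
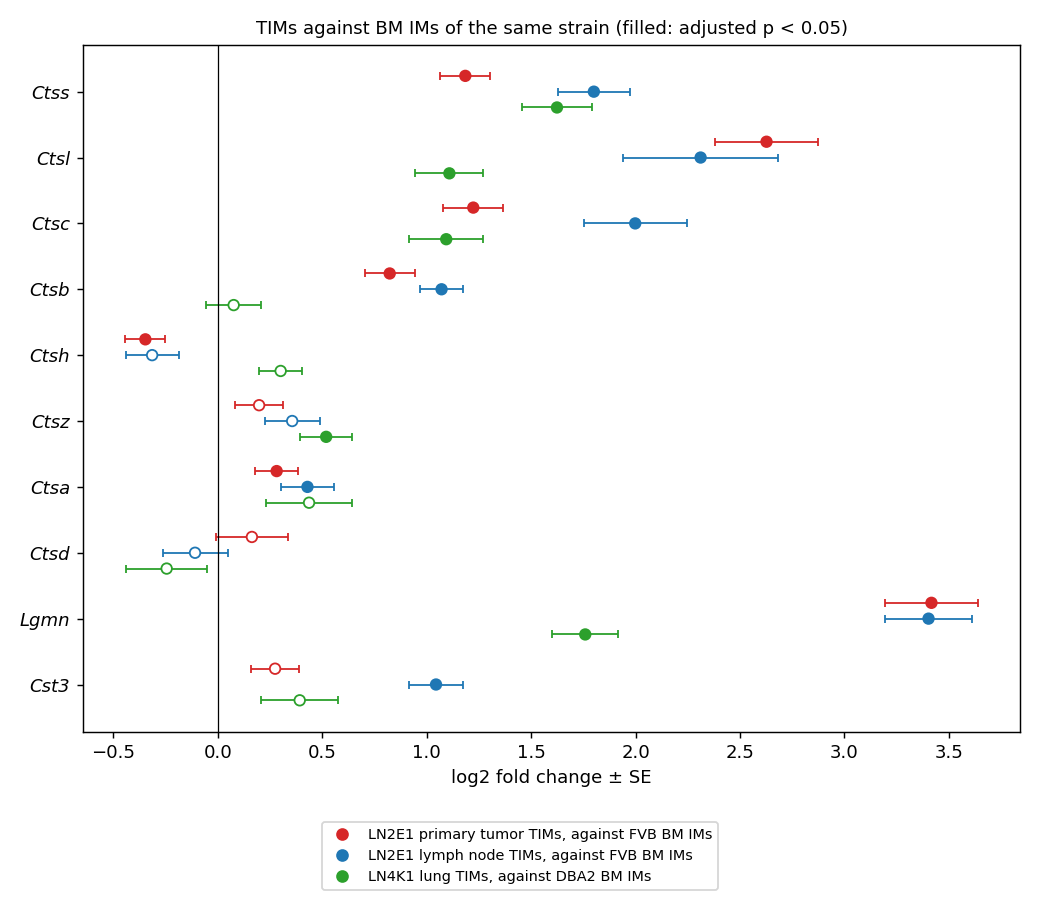
Log2 fold change ± SE (x axis) of each gene in the 3 comparisons of TIMs with BM IMs of the same strain. Filled points have an adjusted p under 0.05. Lgmn has the highest value in each comparison, from 1.76 in LN4K1 lung to 3.42 in LN2E1 primary tumors, and Ctsd is called in none.

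Lgmn, on chromosome 12 (102394084 to 102439813, minus strand; GRCm38, as are all positions here), encodes the asparaginyl endopeptidase legumain. Its level was 22.8, 19.97 and 33.3 CPM in the FVB BM IM libraries. In primary tumor TIMs it was 296, 243, 341, 263 and 233 CPM, and in lymph node TIMs 246, 267, 249, 265 and 316 CPM. The lowest LN2E1 TIM library was thus far above the highest FVB BM IM library. The log2 fold change was 3.42 ± 0.22 (SE, adjusted p = 1.79e-06), or 10.7-fold, in primary tumors and 3.40 ± 0.21 (SE, adjusted p = 1.9e-06), or 10.6-fold, in lymph nodes. DBA2 BM IMs held 46.3, 57.2 and 50.6 CPM and LN4K1 lung TIMs 189, 197, 142, 209 and 180.2 CPM, again without overlap. The change there was 1.76 ± 0.16 (SE, adjusted p = 4.52e-05), or 3.39-fold. Without LN4K1 lung TIM replicate 3, the lowest of its group, it was 1.84 ± 0.11 (SE, adjusted p = 1.7e-06).

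Ctsl encodes cathepsin L, a cysteine endopeptidase of broad specificity (chromosome 13, 64359337 to 64370890, minus strand). FVB BM IMs had 72.1, 69.9 and 52.8 CPM. Primary tumor TIMs had 279, 505, 307, 542 and 398 CPM and lymph node TIMs 440.5, 335, 463, 215 and 153 CPM, the widest spread relative to the mean of any member within a group. Every LN2E1 TIM library was nonetheless above every FVB BM IM library. The log2 fold change was 2.63 ± 0.25 (SE, adjusted p = 1.93e-05) in primary tumors and 2.31 ± 0.37 (SE, adjusted p = 0.00089) in lymph nodes. In the DBA2 strain, Ctsl was 129, 98.1 and 119 CPM in BM IMs and 224, 234, 259, 254 and 343 CPM in LN4K1 lung TIMs, a change of 1.11 ± 0.16 (SE, adjusted p = 0.00102). Exons of Ctsl share 1742 bases with Gm47123 on the opposite strand and 395 bases with the pseudogene Gm49230, and the libraries carried no strand, so reads from these bases cannot be separated.

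Within lymph node TIMs, the Ctsl level ranked with the summed level of genes of plasmacytoid dendritic cells. These cells also express Ly6C but carry little or no CD11b, a marker the sort required. The 8 genes (Siglech, Ccr9, Klk1, Cox6a2, Bcl11a, Spib, Pacsin1 and Ly6d) were listed after the data were seen. Their summed level was 17.95 to 20.6 CPM in BM IM libraries, 18.7 to 150 CPM in LN4K1 lung TIMs, 197 to 499 CPM in primary tumor TIMs and 123 to 1414 CPM in lymph node TIMs. In each of the 3 TIM comparisons, 7 of the 8 were higher, beside 33.3%, 20.2% and 13.9% of all genes. As the 8 were listed with the data seen, this count describes the list and tests nothing. Siglech, a receptor that defines these cells in mice, was at most 1.31 CPM in BM IM libraries and reached 477 CPM in lymph node TIMs. In replicate order, the lymph node sums were 1019, 775, 1414, 418 and 123 CPM, and the libraries ranked the same way for Ctsl. In primary tumors the sums were 309, 473, 197, 499 and 278 CPM, and the pair of libraries highest in the sum were also highest in Ctsl. Primary tumor TIM replicate 1, with a sum of 309 CPM, had the lowest Ctsl of its group, 279 CPM. Replicates 3 and 5, with lower sums, had 307 and 398 CPM of Ctsl. The median sum was 775 CPM in lymph node TIMs and 309 CPM in primary tumor TIMs, whereas mean Ctsl was 321 and 406 CPM. The lymph node library with the lowest sum, 123 CPM and thus above the BM IM range, had 153 CPM of Ctsl, beside the FVB BM IM maximum of 72.1 CPM, and LN4K1 lung TIM replicate 3, with a sum of 18.7 CPM, within the BM IM range, had 259 CPM of Ctsl against a DBA2 BM IM maximum of 129 CPM. The part of these cells in the Ctsl levels was not tested.

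**Figure D3:**
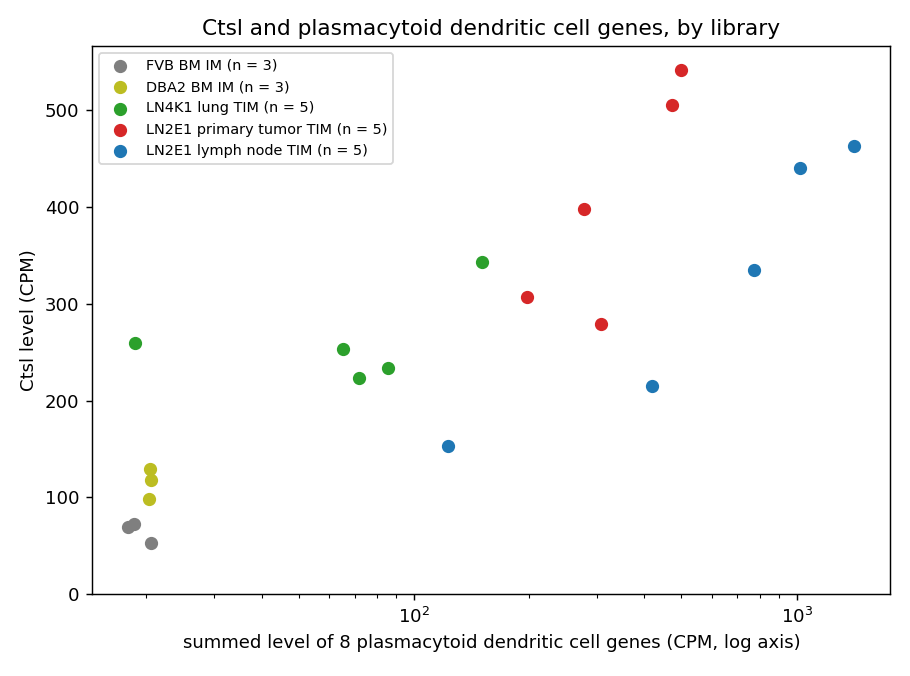
Ctsl level (CPM, linear axis from 0) against the summed level of 8 plasmacytoid dendritic cell genes (CPM, log axis) in the 21 libraries, colored by group. Within the lymph node group Ctsl goes from 153 to 463 CPM as the sum goes from 123 to 1414 CPM, and every TIM library lies above the BM IM libraries of its strain.

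Ctss encodes cathepsin S, which stays active at neutral pH and removes the invariant chain from MHC class II (chromosome 3, 95526786 to 95556403, plus strand). FVB BM IMs had 1793, 1541 and 1245 CPM, primary tumor TIMs 3728, 3692, 3612, 3284 and 3250.5 CPM and lymph node TIMs 6362, 5359.7, 4056, 5271 and 5499 CPM. The groups did not overlap. The log2 fold change was 1.19 ± 0.12 (SE, adjusted p = 2.75e-05) in primary tumors and 1.80 ± 0.17 (SE, adjusted p = 3.45e-05) in lymph nodes. DBA2 BM IMs had 1337, 1220.1 and 1229 CPM and LN4K1 lung TIMs 3652, 3461, 5468, 3771 and 4179 CPM, a change of 1.62 ± 0.17 (SE, adjusted p = 0.000106). Replicate 3 was the highest of the LN4K1 libraries, and without it the change was 1.5004 ± 0.08 (SE, adjusted p = 1.56e-06). The same library had the highest dendritic cell sum of its group, 347 CPM beside 112 to 199.7 CPM in the other 4; the part of this in its Ctss level was not tested.

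Ctsc encodes cathepsin C, the dipeptidyl peptidase that activates granule serine proteases (chromosome 7, 88278085 to 88310888, plus strand). Its level was 1211, 1089 and 806 CPM in FVB BM IMs, 2476, 2111, 2818, 2489 and 2335 CPM in primary tumor TIMs and 4917, 4314, 2365, 4418 and 4647 CPM in lymph node TIMs. Lymph node replicate 3 was low within its group but above every FVB BM IM library. The log2 fold change was 1.22 ± 0.14 (SE, adjusted p = 6.67e-05) in primary tumors and 1.998 ± 0.25 (SE, adjusted p = 0.000174) in lymph nodes. In DBA2 mice the levels were 1201, 1322 and 1320.3 CPM in BM IMs and 2579, 2405, 3969.7, 2946 and 2519 CPM in LN4K1 lung TIMs, which gave 1.09 ± 0.18 (SE, adjusted p = 0.00179). Ctsg, the granule serine protease cathepsin G that Ctsc activates, went the other way, with 125 to 172 CPM in FVB BM IMs and 1.37 to 2.33 CPM in TIMs of primary tumors. Ctsg is also one of the neutrophil precursor genes whose sums are given above.

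Ctsb, cathepsin B, a cysteine endopeptidase that also removes dipeptides from the carboxyl end (chromosome 14, 63122462 to 63145923, plus strand), was higher in both LN2E1 sites. FVB BM IMs had 1897, 1938 and 1912 CPM, primary tumor TIMs 3737, 3158, 4070.1, 3249 and 2965 CPM and lymph node TIMs 3588, 4307, 4096, 4099 and 4030.2 CPM, with no overlap. The log2 fold change was 0.82 ± 0.12 (SE, adjusted p = 0.000257) and 1.07 ± 0.10 (SE, adjusted p = 3.08e-05). DBA2 BM IMs (2464, 2230.1 and 2221 CPM) overlapped LN4K1 lung TIMs (2854, 2645, 2076, 2791 and 2441 CPM), and the difference of 0.08 ± 0.13 (SE, adjusted p = 0.724) was not called. Exons of Ctsb share 774 bases with Fdft1 on the opposite strand.

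Ctsh, cathepsin H, an aminopeptidase of the cysteine class (chromosome 9, 90054152 to 90076089, plus strand), was the single member lower in primary tumors. Its level was 531, 518 and 417 CPM in FVB BM IMs and 410.4, 374, 416, 358 and 388 CPM in primary tumor TIMs, where the highest TIM library lay just under the lowest BM IM library. The change was -0.35 ± 0.10 (SE, adjusted p = 0.0107), and it was not called without FVB BM IM replicate 1 (adjusted p = 0.0794) or replicate 2 (adjusted p = 0.0784). In lymph node TIMs, at 460.3, 408, 369, 346 and 379 CPM, the difference of -0.31 ± 0.13 (SE, adjusted p = 0.08) missed the threshold, though it passed without FVB BM IM replicate 3 (adjusted p = 0.0428) or without lymph node TIM replicate 1 (adjusted p = 0.0261). DBA2 BM IMs had 922, 835 and 836 CPM and LN4K1 lung TIMs 1084, 1112, 1158, 1020.2 and 1243 CPM. These did not overlap, and the difference was 0.30 ± 0.10 (SE, adjusted p = 0.0609), or 0.29 ± 0.09 (SE, adjusted p = 0.0246) without replicate 3.

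Ctsz, a carboxypeptidase (chromosome 2, 174427493 to 174439039, minus strand), was higher in LN4K1 lung TIMs, with 1234, 1124, 1591, 1338 and 1317 CPM against 902, 868 and 851 CPM in DBA2 BM IMs. The change was 0.52 ± 0.13 (SE, adjusted p = 0.0145), and it was not called without DBA2 BM IM replicate 2 (adjusted p = 0.0645) or 3 (adjusted p = 0.0677). In FVB mice the BM IM libraries held 786 to 1035 CPM of Ctsz, those of primary tumor TIMs 997 to 1238 CPM and those of lymph node TIMs 1084 to 1393 CPM, with differences of 0.20 ± 0.11 (SE, adjusted p = 0.156) and 0.36 ± 0.13 (SE, adjusted p = 0.0575). The lymph node libraries did not overlap the FVB BM IM libraries, and the difference was called with all 5 groups in one fit (0.0276) and with DESeq2's Wald test (0.0235; each an adjusted p).

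Ctsa encodes the serine carboxypeptidase that also holds beta-galactosidase and neuraminidase together in the lysosome (chromosome 2, 164832873 to 164841032, plus strand). It was higher by 0.28 ± 0.10 (SE, adjusted p = 0.0345) in primary tumors and 0.43 ± 0.12 (SE, adjusted p = 0.0219) in lymph nodes. FVB BM IM libraries held 1460.5, 1329 and 1139 CPM, primary tumor TIMs 1475 to 1758 CPM and lymph node TIMs 1514 to 2013 CPM, and only narrow gaps separated the groups. The primary tumor call was lost without any 1 of FVB BM IM replicates 2 and 3 and primary tumor TIM replicates 1, 3 and 5, with adjusted p from 0.0535 to 0.0976, and the lymph node call was lost without FVB BM IM replicate 2 (adjusted p = 0.0829) or 3 (adjusted p = 0.0844). LN4K1 lung TIMs had 1999.6, 1812, 1003, 1764 and 1705 CPM against 1243, 1136 and 1104 CPM in DBA2 BM IMs, a difference of 0.44 ± 0.21 (SE, adjusted p = 0.156). Replicate 3 was the single LN4K1 library below the BM IM range, and without it the change was 0.57 ± 0.09 (SE, adjusted p = 0.000876). Exons of Ctsa share 819 bases with Neurl2 and Pltp on the opposite strand.

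Ctsd encodes the major aspartic protease of the lysosome (chromosome 7, 142375911 to 142388038, minus strand). Its level was 757, 779 and 788 CPM in FVB BM IMs, 822, 691, 1214, 926 and 743 CPM in primary tumor TIMs and 829.7, 797, 589.6, 555 and 821 CPM in lymph node TIMs. DBA2 BM IMs had 765, 591 and 628 CPM and LN4K1 lung TIMs 596, 635, 385, 581 and 749 CPM. TIM and BM IM libraries overlapped in all 3 comparisons. The differences were 0.16 ± 0.17 (SE, adjusted p = 0.437) in primary tumors, -0.11 ± 0.16 (SE, adjusted p = 0.631) in lymph nodes and -0.24 ± 0.19 (SE, adjusted p = 0.406) in LN4K1 lung, and none was called under any alternative run. Exons of Ctsd share 808 bases with Gm49369 on the same strand, and how reads on them were assigned is not given in the sources used here.

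Cst3, the cystatin C gene (chromosome 2, 148871722 to 148875692, minus strand), had 1535, 1486 and 1243 CPM in FVB BM IMs and 2806, 2953, 3405, 2486 and 2991 CPM in lymph node TIMs, a change of 1.04 ± 0.13 (SE, adjusted p = 0.000192). Primary tumor TIMs had 2001, 1735, 1655, 1460.2 and 1859.8 CPM, and their lowest library lay within the BM IM range. The difference there was 0.27 ± 0.11 (SE, adjusted p = 0.0601), but it was called with DESeq2's size factors in edgeR (0.0311), with DESeq2's Wald test (0.0214) and without primary tumor TIM replicate 4 (0.0244; each an adjusted p). In DBA2 mice the levels were 1819.7, 1703 and 1619 CPM in BM IMs and 2120.0, 1888, 3353, 2034 and 2480.4 CPM in LN4K1 lung TIMs, with a difference of 0.39 ± 0.18 (SE, adjusted p = 0.157) that became 0.24 ± 0.10 (SE, adjusted p = 0.0843) without replicate 3. Lymph node TIM replicate 3 and LN4K1 lung TIM replicate 3, each the highest of its group in Cst3, were also highest in the dendritic cell sum. For the lymph nodes this sum was 258 CPM, beside 109 to 199 CPM in the other 4 libraries. In the plasmacytoid dendritic cell sum, the lymph node library was the highest of its group (1414 CPM) and the LN4K1 lung library the lowest (18.7 CPM). The part of these cells in the Cst3 levels was not tested. The summed CPM of the 7 cysteine proteases (legumain included) was 4.18 to 4.27 times that of Cst3 in FVB BM IM libraries, 5.71 to 7.74 times in primary tumor TIMs and 3.73 to 6.31 times in lymph node TIMs. The same ratio was 3.85 to 4.09 in DBA2 BM IMs and 4.37 to 6.06 in LN4K1 lung TIMs. It is a ratio of RNA levels without correction for length, and lymph node replicate 3 was the lowest TIM library.

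Lymph node TIMs were next compared with primary tumor TIMs of the same model, which asks what differs between the metastatic and the primary site. Cst3, Ctsc and Ctss were higher in lymph nodes, 3 of the 10 genes, where 6.15% of all genes tested were higher and 5.55% lower. None was lower, at an unadjusted p under 0.05 or with DESeq2 either. The log2 difference was 0.76 ± 0.11 (SE, adjusted p = 0.00157) for Cst3 and 0.61 ± 0.11 (SE, adjusted p = 0.00573) for Ctss, and for both every lymph node library was above every primary tumor library. Ctsc differed by 0.77 ± 0.17 (SE, adjusted p = 0.0163), and lymph node replicate 3 lay within the primary tumor range. Without that library the Ctsc difference was 0.90 ± 0.09 (SE, adjusted p = 0.000612). Lgmn differed by -0.03 ± 0.12 and Ctsh by 0.02 ± 0.09 (SE), while Ctsl, with its wide spread, differed by -0.33 ± 0.30. The summed level of 4 lung epithelium genes was 124 to 723 CPM in primary tumor TIMs, mostly the surfactant gene Sftpc, and 0.861 to 4.56 CPM in lymph node TIMs; its part in these differences was not tested.

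BM IMs of the healthy mice differed between the strains. Lgmn (1.04 ± 0.21 (SE, adjusted p = 0.0116)), Ctsl (0.86 ± 0.15 (SE, adjusted p = 0.00676)) and Ctsh (0.85 ± 0.11 (SE, adjusted p = 0.00162)) were higher in DBA2 than in FVB BM IMs, 3 of 10 genes against 11.5% of all genes tested. None was lower, where 9.57% of all genes were, and neither an unadjusted p under 0.05 nor DESeq2 gave any. For these 3 genes the 3 DBA2 libraries did not overlap the 3 FVB libraries. The same held for Ctsb and Cst3, which were not called. How many of all genes separated in this way was not counted. Ctsl was not called when all 5 groups were fitted together (adjusted p = 0.106). Without FVB BM IM replicate 3, Ctss was lower in DBA2 BM IMs (-0.36 ± 0.09 (SE, adjusted p = 0.0166)) and Ctsb higher (0.31 ± 0.08 (SE, adjusted p = 0.0186)). The mature neutrophil sums of these BM IM groups, given above, did not overlap either, and 3 of the 5 genes were lower in DBA2; their part in these differences was not tested. Within the DBA2 groups Ctsh stayed high, at 835 to 1243 CPM, beside 346 to 531 CPM in the FVB groups.

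Whether TIMs departed from BM IMs by the same amount in LN2E1 primary tumors and in LN4K1 lung was tested as an interaction in 1 fit of the 4 groups. At an adjusted p under 0.05, the primary tumor change minus the LN4K1 lung change was called above 0 for 3 genes and below 0 for 1. Of all genes tested, 13.2% and 13.3% were called in these directions. Lgmn changed more in LN2E1 primary tumors by 1.67 ± 0.25 (SE, adjusted p = 0.000535), Ctsl by 1.54 ± 0.29 (SE, adjusted p = 0.00181) and Ctsb by 0.76 ± 0.18 (SE, adjusted p = 0.00613) on the log2 scale. For Ctsh the difference between the changes was -0.63 ± 0.13 (SE, adjusted p = 0.0034). These 4 calls were made in each of the 21 alternatives run for this comparison. For Ctss the difference was -0.42 ± 0.19 and for Ctsc 0.15 ± 0.22 (SE), neither called. Model, strain and tissue cannot be told apart in this difference.

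**Figure D4:**
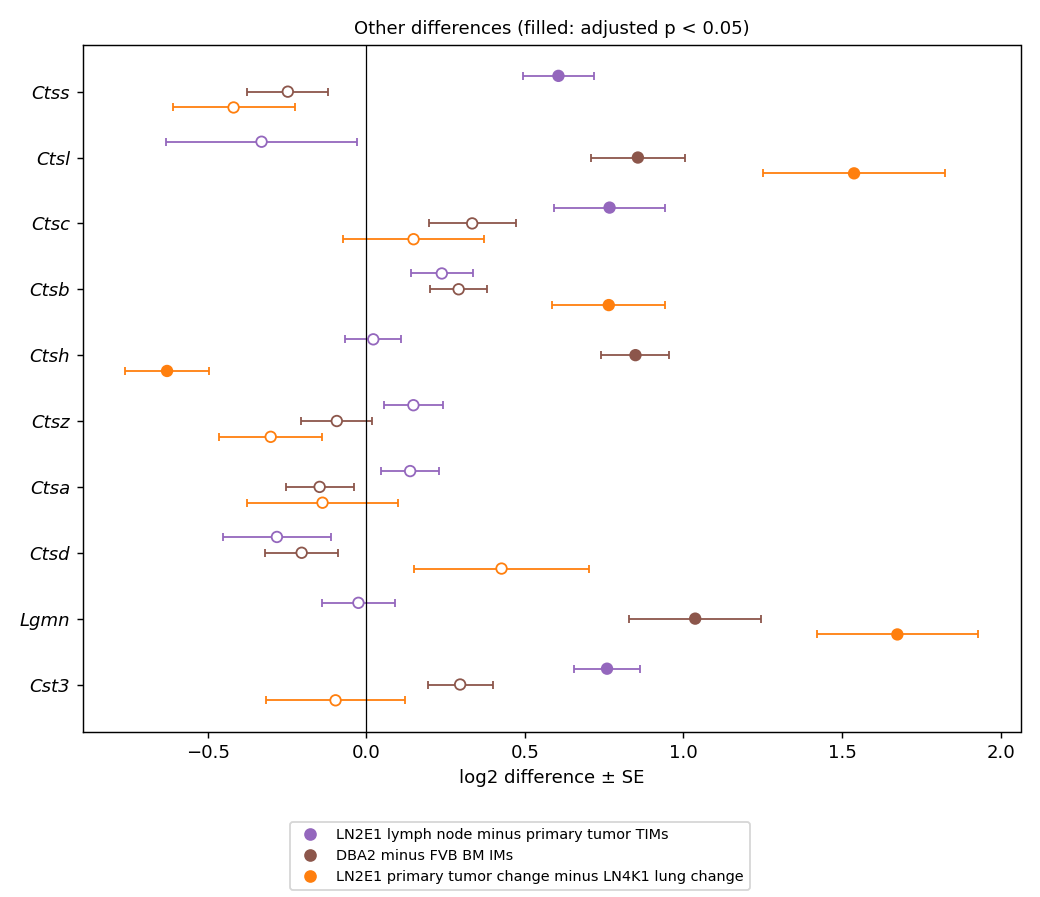
Log2 difference ± SE (x axis) of each gene between lymph node and primary tumor TIMs, between DBA2 and FVB BM IMs, and between the LN2E1 primary tumor change and the LN4K1 lung change. Filled points have an adjusted p under 0.05. Ctss, Ctsc and Cst3 are filled for the first, Lgmn, Ctsl and Ctsh for the second, and Lgmn, Ctsl, Ctsb and Ctsh for the third.

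Other genes of the lysosome were followed in 8 lists of 98 genes, of which 97 were in the table. In primary tumor TIMs 39 of the 92 tested were higher and 18 lower, in lymph node TIMs 30 of 88 were higher and 14 lower, and in LN4K1 lung TIMs 19 of 91 were higher and 11 lower. The shares called higher were 42.4%, 34.1% and 20.9%, beside 33.3%, 20.2% and 13.9% of all genes, and the shares called lower 19.6%, 15.9% and 12.1%, beside 28.6%, 17.2% and 11.0% of all genes. Their median log2 fold changes were 0.17, 0.27 and 0.13, beside 0.08, -0.04 and 0.03 over all genes tested. Of 12 lysosomal membrane genes, 9, 6 and 5 were called higher in the 3 comparisons, and 1, 2 and 0 lower. Slc11a1, a metal ion transporter of phagosomes, was higher by 1.67, 1.64 and 1.26 in primary tumors, lymph nodes and LN4K1 lung, and Lamp2, a main membrane glycoprotein, by 1.105, 1.47 and 0.70. Of the 16 listed genes of the V-ATPase, the proton pump that acidifies the lysosome, 4 of 16 tested were higher in primary tumors, 5 of 15 in lymph nodes and 4 of 16 in LN4K1 lung. These shares of 25.0%, 33.3% and 25.0% stand below that of all genes in primary tumors and above it in the other two. Its subunit gene Atp6v0a1 was higher by 2.21, 1.46 and 1.12, and the accessory gene Atp6ap1 by 0.28, 0.43 and 0.57.

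**Figure D5:**
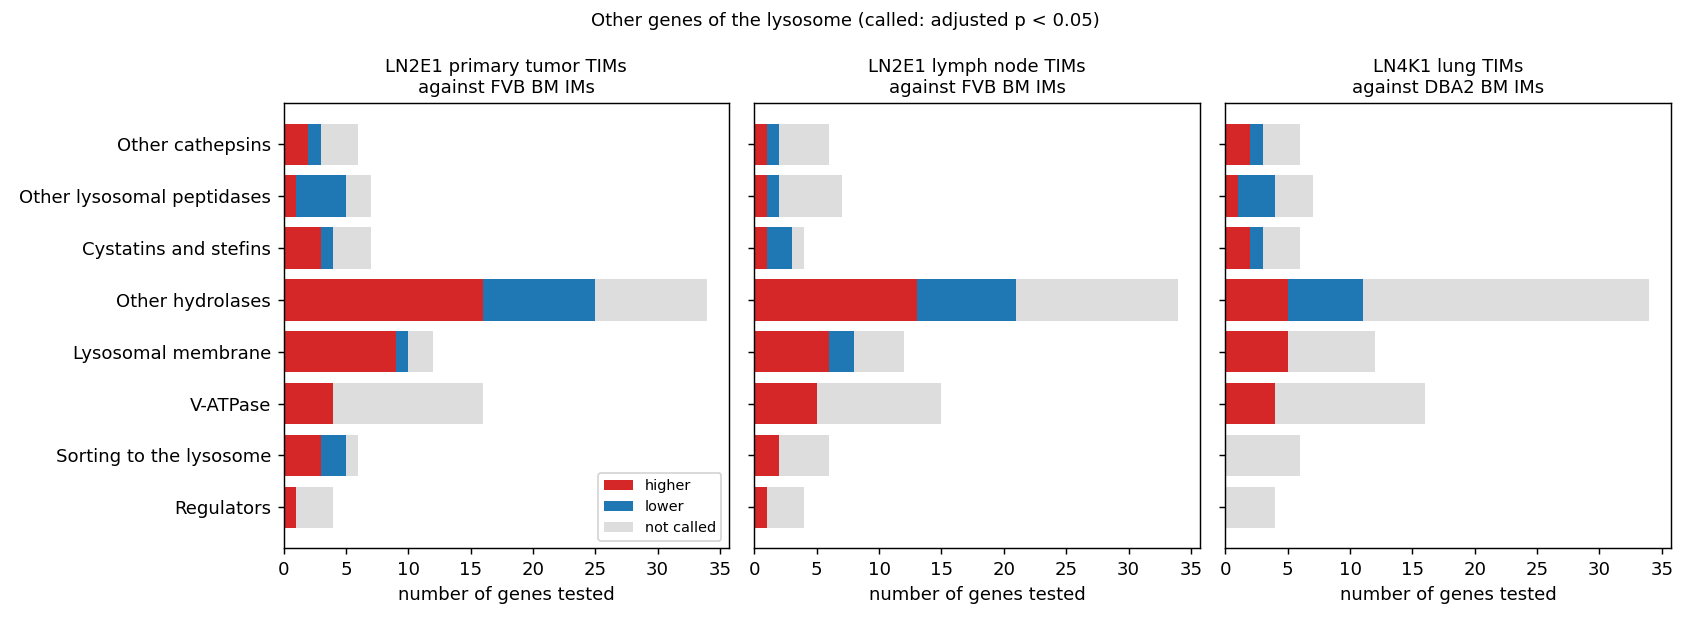
Number of genes tested in each of 8 lists of other lysosomal genes (x axis), split into higher in TIMs, lower in TIMs and not called at an adjusted p of 0.05. Lysosomal membrane genes are mostly higher in primary tumors (9 of 12), and other hydrolases hold genes called in both directions.

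Among 34 glycosidases, lipases and other hydrolases, 16 were higher and 9 lower in primary tumors, 13 and 8 in lymph nodes, and 5 and 6 in LN4K1 lung. The shares higher were 47.1%, 38.2% and 14.7%, the last near the 13.9% of all genes, and the shares lower were 26.5%, 23.5% and 17.6%, the first near the 28.6% of all genes. Ppt1, which removes fatty acids from proteins, was higher by 1.60, 1.76 and 1.77, with 252 to 297 CPM in FVB BM IMs and 824 to 910.4 CPM in primary tumor TIMs. Acp5, tartrate-resistant acid phosphatase, was higher by 1.35, 1.68 and 0.99. Arsb, which removes sulfate from glycosaminoglycans, was lower (-1.53, -1.89 and -1.73), as was Dnase2a, the lysosomal DNase (-0.74, -1.37 and -1.30).

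Of 6 other cathepsins, Ctso was higher by 1.001, 1.52 and 0.85 and Ctsg lower by -6.33, -4.58 and -4.36 in all 3 comparisons. Ctsw, a cathepsin of cytotoxic lymphocytes, was also called higher in primary tumors and LN4K1 lung but did not exceed 6.65 CPM. Of 8 other lysosomal peptidases, 7 were tested, with 1 higher and 4 lower in primary tumors, 1 and 1 in lymph nodes and 1 and 3 in LN4K1 lung. The share higher was 14.3% in each, beside 33.3%, 20.2% and 13.9% of all genes. The shares lower were 57.1%, 14.3% and 42.9%, beside 28.6%, 17.2% and 11.0% of all genes. Scpep1, a serine carboxypeptidase, was higher by 0.36, 0.67 and 0.39, and the dipeptidyl peptidase Dpp7 lower (-0.53, -0.71 and -0.42). Among the cystatins and stefins, 3 of 7 tested were higher and 1 lower in primary tumors, 1 of 4 higher and 2 lower in lymph nodes, and 2 of 6 higher and 1 lower in LN4K1 lung. Beside the same shares of all genes, 42.9%, 25% and 33.3% were higher and 14.3%, 50% and 16.7% lower. Cstb, the cytosolic inhibitor of cysteine cathepsins, was higher by 0.43, 0.59 and 0.56. In the list for sorting to the lysosome, 3 of 6 genes were higher and 2 lower in primary tumors. In lymph nodes 2 were higher and 0 lower, and in LN4K1 lung 0 were called. The shares higher were 50%, 33.3% and 0%, and the shares lower 33.3%, 0% and 0%, beside those of all genes given above. Of 4 regulators, Tfe3 was higher in primary tumors (1.19 (adjusted p = 0.00179)) and lymph nodes (0.83 (adjusted p = 0.0207)), whereas Tfeb had log2 differences of -0.08, -0.15 and -0.32, not called.

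The gene whose level over the 21 libraries was most like that of a member was found among the 8015 genes whose mean log2 CPM exceeded 3, as the smallest root mean square difference of centered log2 CPM. Ctsz was closest to Dph3 (0.104 log2 units), Ctsb to Cln8 (0.147), Ctss to Ms4a6b (0.152) and Cst3 to Ube2b (0.166). Ctsh was closest to Cdk2ap2 (0.195), Ctsd to Fam63a (0.210), Ctsc to Plaur (0.217) and Lgmn to Slc37a3 (0.260). Ctsl had the most distant nearest gene, Tcf4 (0.422).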

How the data were processed

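RNA of sorted IMs was measured in 21 libraries, made by SMART amplification and Nextera XT tagging without strand. The authors trimmed reads with BBDuk, aligned them to mm10 with BBMap, and obtained gene counts from featureCounts 1.5.2 (SAMtools 1.8 is also named in the submitters' processing notes); the settings and annotation of the counting are not given in the sources used here. The deposited values are raw counts per gene symbol, 80772922 to 101043568 per library. The SE and SD values given here include the spread between libraries. Groups came from the sample labels.

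The counts were tested with edgeR 4.0.16 (R 4.3.3) and DESeq2 1.42.0. Every comparison used only its own libraries (TMM factors, minimum count of 10 and minimum total of 15, robust quasi-likelihood test, Benjamini-Hochberg adjustment over all genes tested). The SE is the absolute log2 fold change divided by the square root of F. CPM used TMM factors over all libraries, and log2 CPM a prior count of 2. The script was tested on simulated data. Alternatives were DESeq2's size factors, a total of at least 1 count, all 5 groups in one fit, a replicate block, DESeq2's Wald test, and leaving out each library. Members and lists were chosen with earlier results of these data known. Besides the members, genes were named by rule: from each list up to 2 per direction, called with the same sign in the 3 TIM comparisons with the largest smallest change and a mean log2 CPM above 3, and each member's nearest gene (1 of these is not reported here). Genes outside this rule (markers, Ctsw, Tfe3, Tfeb) were chosen after their values were seen. Positions came from GENCODE vM21, promoter sequences from RefSeq. Of the listed symbols absent from the table, 3 were matched through RefSeq synonyms.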

Additional observations from a re-analysis of the deposited data

Results flagged for a closer look

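Within the TIM groups of 5, 30 combinations of gene and group were examined for a sample far from the others, and 1 was found; chance gives about 1 in 20. Ctsc in lymph node TIM replicate 3 was 2365 CPM, below the other 4 libraries of its group. The same library had the highest plasmacytoid dendritic cell sum, 1414 CPM, and the part of that in its Ctsc level was not tested.

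The change from BM IMs to TIMs differed between LN2E1 primary tumors and LN4K1 lung for 4 genes, by edgeR's test of the interaction. The difference was 1.67 for Lgmn, 1.54 for Ctsl, 0.76 for Ctsb and -0.63 for Ctsh on the log2 scale. For Lgmn, Ctsl and Ctsh the BM IMs of the strains differed as well, and for Ctsb the difference between BM IMs was 0.29 ± 0.09 (SE), not called.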

How the results depend on the processing

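Lgmn, Ctsl, Ctss and Ctsc were called higher in each of the 13 alternatives run for each TIM comparison. Outside the fits that left out a library, 3 counts of members called changed by over 1.5 times. With all 5 groups in one fit, 8 members were called higher in LN4K1 lung in place of 5 (Ctsa, Ctsh and Cst3 besides, adjusted p = 0.0263, 0.016 and 0.0405), 1 was called lower in lymph nodes in place of 0 (Ctsh, adjusted p = 0.0162), and Ctsa was not called in primary tumors (adjusted p = 0.133). Of the 15357 genes in that fit, 2403 were called higher in LN4K1 lung and 3290 lower in lymph nodes. In the main fits these were 1892 of 13624 and 2284 of 13273. DESeq2's Wald test also called Ctsh in LN4K1 lung (adjusted p = 0.00676) and Ctsb between BM IMs (adjusted p = 0.0316). With the replicate number as a block, 0 were called lower in primary tumors in place of 1, where 2594 of 14569 genes were. Leaving out each library in turn gave 5 to 7 higher and 0 to 1 lower in primary tumors, 6 to 7 and 0 to 1 in lymph nodes, 4 to 7 and 0 in LN4K1 lung, 3 and 0 for lymph nodes against primary tumors, 3 to 4 and 0 to 1 for the BM IMs, and 3 and 1 for the interaction. Directions turned only where differences were near 0. For lymph node against primary tumor TIMs, Ctsh was -0.00509 with DESeq2's size factors and -0.00502 with its Wald test, and it lay between -0.0398 and 0.0641 with each library left out in turn. Lgmn lay between -0.0888 and 0.0652 there, and Cst3 between -0.171 and 0.0535 in the interaction, above 0 without LN4K1 lung TIM replicate 3 alone. The causes were not tested.

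Replicate numbers did not mark a shared animal or day in the labels. The deviations of same-numbered libraries correlated between -0.30 and 0.30, not above 0.1 in every pair of any comparison. With so few pairs, these values cannot show whether same-numbered libraries share an animal or day. In the fit with the replicate block, 5, 8 and 4 members were called higher in primary tumors, lymph nodes and LN4K1 lung. Of all genes, 3360 of 14569, 2125 of 13273 and 691 of 13624 were. That fit called 2 members higher in lymph nodes against primary tumors (Ctsc not among them, adjusted p = 0.0894), 3 between BM IMs and 3 in the interaction. Of all genes, 245 of 13488, 1409 of 12905 and 1560 of 15182 were called higher there. No gene of the table was a DEG in the TIM comparisons with the block, so the number of higher member DEGs was 0, 0 and 0 in place of 4, 3 and 1. Ctsz in lymph nodes was called with the block (adjusted p = 0.0426). With DESeq2's Wald test the number of higher member DEGs was 4, 6 and 4, with all 5 groups in one fit 4, 6 and 2, and with a total of at least 1 count 4, 4 and 2. Leaving out each library in turn gave 1 to 3, 1 to 3 and 0 to 2. The background of all genes moved as well. Higher DEGs were 1124 of 14569, 532 of 13273 and 165 of 13624 genes in the main fit. With DESeq2's Wald test they were 2807 of 18587, 1577 of 17302 and 894 of 17612. With all 5 groups in one fit they were 1053, 1185 and 474 of 15357. With a total of at least 1 count they were 1290 of 18587, 646 of 17302 and 219 of 17612. The lowest level of any member in any library was 19.97 CPM, in Lgmn, at totals of at least 80772922 counts, so depth did not limit detection of the members.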
